A study of Mus musculus with 10 samples.

Results

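The regions described here surround Fabp4, Adipoq, Lpl and Cd36, 4 genes of mature fat cells, in chromatin that was sampled 4 h after 3T3-L1 preadipocytes began to differentiate. They are the DNase I hypersensitive (DHS) sites that overlap, by 1 bp or more, a window reaching about 100 kb to each side of each gene on the mm9 genome, together with the footprints inside them. A DHS site is a stretch of open chromatin that DNase I cuts often, and a footprint is a short run of bases within it that is cut seldom, as happens where protein covers the DNA. The windows run on chromosome 3 from 10104000 to 10310000 for Fabp4, on chromosome 16 from 23046000 to 23260000 for Adipoq, on chromosome 8 from 71304000 to 71531000 for Lpl, and on chromosome 5 from 17190000 to 17440000 for Cd36. They held 68 of the 129028 DHS sites in the deposited list and 202 of its 329076 footprints. The members were set by position and not by any measured value.

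3T3-L1 is an established mouse fibroblast line committed to the fat lineage. The cells were induced 2 days past confluence with 1 µM dexamethasone (a glucocorticoid), 0.5 mM 3-isobutyl-1-methylxanthine (which raises cyclic AMP), 1 µg/mL insulin and 10% fetal calf serum, and nuclei were taken 4 h later. The 2 DNase samples, 1 of them read as paired ends, are more reads of 1 library, and the authors added its earlier reads before calling sites and footprints. The study's 8 RNA samples came from cells at 0 h and 4 h that carried an shRNA, either scrambled or directed at C/EBPβ, and were not used here. With 1 library and no untreated cells in these lists, no test between conditions was possible, no change over time can be read from the sites, and the depth behind each site is unknown. Because expression was not used, the labelled cell type was not checked against markers.

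As background, fat cell formation runs in steps. Glucocorticoid and cyclic AMP signals first activate early factors such as C/EBPβ, C/EBPδ and the glucocorticoid receptor, which act before PPARγ and C/EBPα. The last pair then drive the genes of the mature cell, days later. Among these, Fabp4 encodes a carrier of fatty acids in the cytoplasm, Adipoq the secreted hormone adiponectin, Lpl lipoprotein lipase, which frees fatty acids from circulating lipoproteins, and Cd36 a membrane protein that takes up fatty acids.

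RefSeq's promoter table, on GRCm38.p6, matched 2 of the 4 genes, Adipoq and Cd36. The 250 bases before RefSeq's start are shown for both. Capitals mark CCAAT boxes (CCAAT on either strand) and GC boxes (GGGCGG on either strand), a choice made after the sequences had been seen. The Adipoq sequence is chr16:23146286-23146535 on the plus strand and the Cd36 sequence is chr5:17835897-17836146 on the minus strand, both 5′ to 3′. These positions are on another build than the mm9 positions of the sites and were not set against them.
Adipoq: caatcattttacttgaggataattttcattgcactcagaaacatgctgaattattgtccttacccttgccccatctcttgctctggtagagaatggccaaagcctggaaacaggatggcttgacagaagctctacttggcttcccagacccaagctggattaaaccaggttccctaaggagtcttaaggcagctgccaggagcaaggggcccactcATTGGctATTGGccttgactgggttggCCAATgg
Cd36: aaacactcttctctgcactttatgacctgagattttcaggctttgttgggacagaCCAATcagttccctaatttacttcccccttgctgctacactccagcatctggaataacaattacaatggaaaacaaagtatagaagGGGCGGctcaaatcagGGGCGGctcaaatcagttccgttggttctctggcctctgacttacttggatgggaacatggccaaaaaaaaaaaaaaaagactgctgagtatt

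The Adipoq sequence held 3 CCAAT boxes, at -34, -27 and -7 by their first base, counted back from -1 just before the start. The Cd36 sequence held 1 CCAAT box, at -195, and 2 GC boxes, at -109 and -93. A CCAAT box was found in 33.8% of all 32851 promoters of this length in the table and a GC box in 32.7%. Neither sequence held any of 6 other motifs, read on both strands. Those were the C/EBP motif TTGCNNAA (in 9.56% of promoters), the glucocorticoid receptor short motif AGAACA (16.1%), the AP-1 motif TGANTCA (6.75%), the cyclic AMP element TGACGTCA (1.55%), the TATA box TATAAA (12.4%) and the PPAR-RXR direct repeat, 2 copies of AGGTCA with 1 base between (0.0335%). This says only that those letters are not in these windows.

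The 4 loci differed widely at 4 h. The Adipoq window held 25 DHS sites and 98 footprints, the Lpl window 17 and 65, the Cd36 window 10 and 31, and the Fabp4 window 16 and 8. Adipoq was thus the richest on both counts, Cd36 had the fewest sites, and Fabp4 had 1 site fewer than Lpl but the fewest footprints. A site spanned the start edge of Lpl alone. A gene's edges are taken here as the window less 100 kb on each side, since mm9 gene models were not used. The windows reach only about 100 kb past each gene, so the edges are approximate by an unknown amount. Distances are counted from these edges, and whether a site lies on a gene's true start was not analysed. Fabp4 and Cd36 are read on the minus strand, Adipoq and Lpl on the plus strand.

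**Figure D1:**
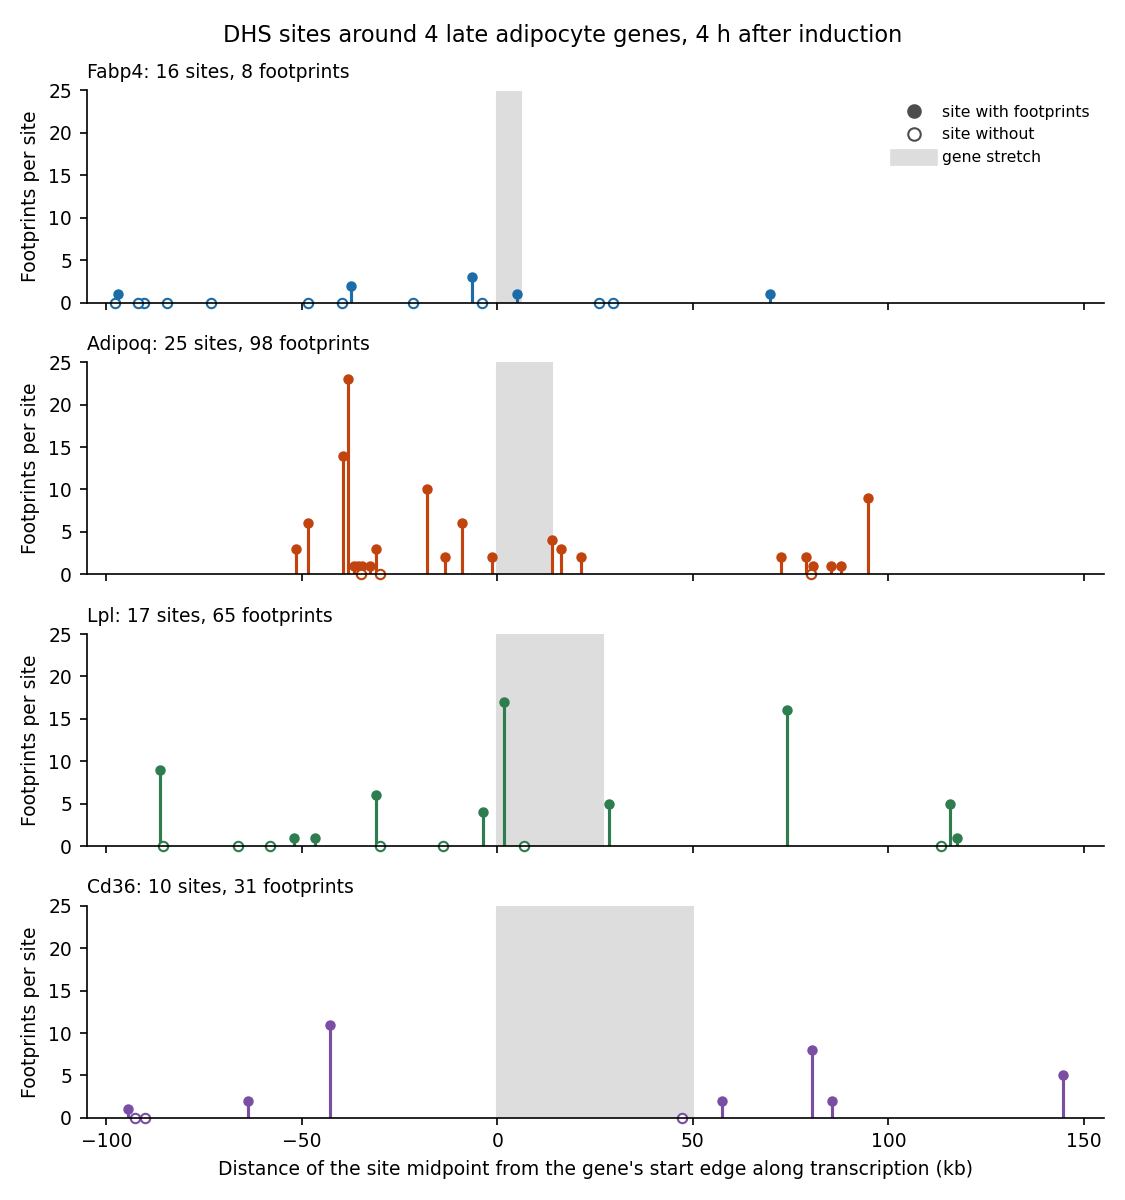
Each stem or point is a DHS site, placed by the distance of its midpoint from the gene's start edge (x axis, kb, in the direction of transcription) and by its number of footprints (y axis). Filled points have footprints, open points have none, and grey marks the gene stretch, which 5 of the 68 sites overlap.

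Set beside tiles of equal length laid end to end along 20 chromosomes, the windows ranged from dense to ordinary. The Adipoq window had 11.7 sites per 100 kb, and 1.68% of 12039 tiles of its length held as many sites or more (tile median 10). The Lpl window had 7.49 sites per 100 kb, a number reached by 16.1% of 11347 tiles (median 11). The Fabp4 window had 7.77 per 100 kb, reached by 14.4% of 12503 tiles (median 10). The Cd36 window had 4.00 per 100 kb, and 68.4% of 10302 tiles held as many (median 12). For footprints the order was different. The share of tiles with as many was 5.48% for Adipoq (98 footprints, tile median 12), 14.6% for Lpl (65, median 13), 36.6% for Cd36 (31, median 15) and 54.7% for Fabp4 (8, median 11). Of the 4 windows, only Fabp4 lay above the tile median in sites and below it in footprints, and only Cd36 showed the reverse.

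**Figure D2:**
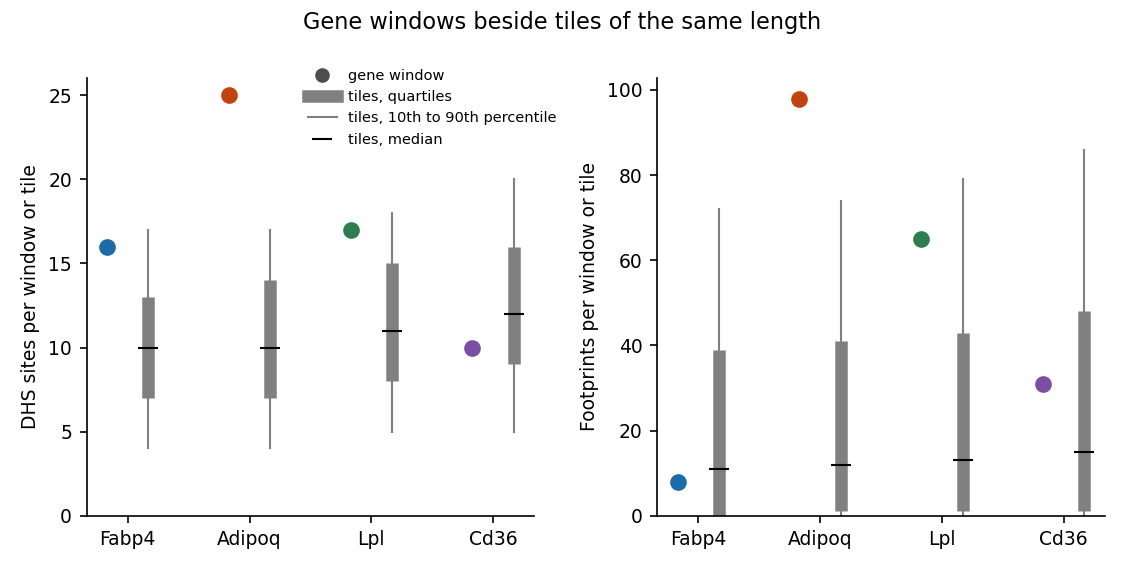
Coloured points give the number of DHS sites (left) and of footprints (right) in each gene window, and grey bars give all tiles of that length along the chromosomes (thick, quartiles; thin, 10th to 90th percentile; black dash, median). Adipoq lies above the 90th percentile on both, while Fabp4 has 16 sites against a median of 10 and 8 footprints against a median of 11.

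Footprints were present in 44 of the 68 sites, 64.7% (95% Wilson interval 52.8 to 75%, for counting error alone, with sites taken as independent). In the whole list 45.4% of sites held 1 or more. The windows split around that figure. In the Adipoq window 22 of 25 sites had a footprint (88.0%, interval 70.0 to 95.8%), in the Cd36 window 7 of 10 (70.0%, 39.7 to 89.2%), in the Lpl window 10 of 17 (58.8%, 36.0 to 78.4%), and in the Fabp4 window 5 of 16 (31.2%, 14.2 to 55.6%). The combined share therefore rested on Adipoq, and without that window it was 51.2%. Sites with 5 or more footprints numbered 15 of 68 (22.1%), beside 19.3% in the whole list, so the windows together were close to the list on this count. They were 6 of 25 at Adipoq, 6 of 17 at Lpl, 3 of 10 at Cd36 and 0 of 16 at Fabp4. The Wilson interval at Fabp4 reached up to 19.4%, which takes in the share of the list.

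Wide sites carry more footprints throughout the list, so the numbers were also set beside those of sites of like width. Median widths were 672.5 bp at Cd36, 633 bp at Adipoq, 565 bp at Lpl and 533.5 bp at Fabp4, against 532 bp in the list. From the mean footprint number of sites of like width (50 classes by rank, of which ties in width left 49 filled), 81.0 footprints would be present at Adipoq, 58.4 at Lpl, 25.5 at Cd36 and 18.0 at Fabp4. The observed numbers were 1.21 times that at Adipoq (exact Poisson interval 0.982 to 1.47, counting error only), 1.11 times at Lpl (0.860 to 1.42), 1.22 times at Cd36 (0.827 to 1.73) and 0.445 times at Fabp4 (0.192 to 0.877). The first 3 intervals include 1 and the Fabp4 interval lies below it, but these positions depend on the settings. The Poisson intervals also take footprints as independent, while footprints gather in few sites (list mean 2.55 per site, standard deviation 5.05). They are therefore too narrow, and their place beside 1 does not establish a difference. With windows of 50 kb on each side the Fabp4 interval was 0.194 to 1.15, which includes 1. At that size the intervals of Adipoq (1.02 to 1.60) and Cd36 (1.03 to 2.45) lay above 1. The same classes gave a share of sites with a footprint of 57.3% at Adipoq, 53.5% at Cd36, 52.8% at Lpl and 41.2% at Fabp4. Only at Adipoq did the observed share's interval lie above that value. Single sites with 5 or more footprints, at 2 times the mean for their width, were 2 of 68 (2.94%), 1 at Adipoq and 1 at Lpl. In the list they were 4.597%, so such sites were not more common in the windows.

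**Figure D3:**
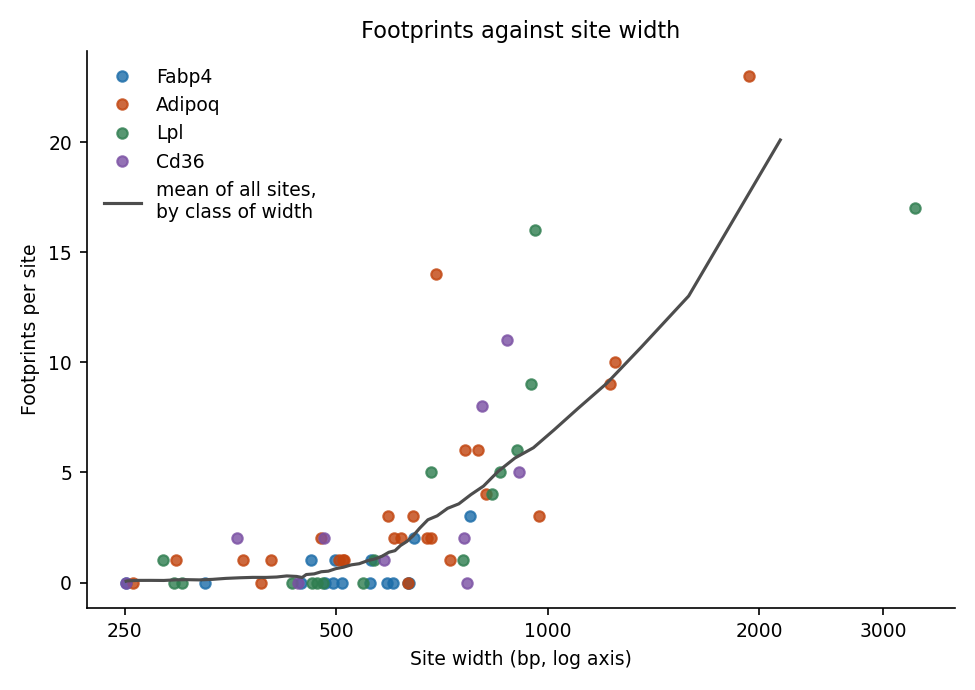
Each point is 1 of the 68 DHS sites, by its width (x axis, bp, log scale) and its number of footprints (y axis), coloured by gene. The line joins the means of all sites in the list in 49 classes of width; the Adipoq site of 693 bp with 14 footprints and the Lpl site of 958 bp with 16 stand above it, and no Fabp4 site has more than 3.

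At Lpl, open chromatin lay on the gene as bounded here. A 3336 bp site, on chromosome 8 from 71403938 to 71407273, spanned the start edge and reached into the gene. Only 222 sites in the list (0.172%) were as wide. It held 17 footprints, 26.2% of those in the window, against 20.1 on average in the widest class of sites, which runs from 1794 to 13152 bp with a median of 2143 bp. Its density was 5.10 footprints per kb, against 4.96 over all sites of the Lpl window and 4.08 over those of the list. The comparison values cover sites of all widths. Within its own class the site was wider than the median and held fewer footprints than the mean, so its density was not high for its width. Its footprints fell in 3 runs more than 300 bp apart, with 5 footprints in 406 bp nearest the start edge, 6 in 459 bp and 6 in 314 bp farthest into the gene. The strongest deposited score in each run was -6.02, -5.00 and -4.30 in that order, where the score is the authors' value for each footprint, on a scale that no source used here states, and more negative is read as stronger.

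The neighbour upstream of the broad site, 833 bp wide with its midpoint 3.61 kb before the start edge, held 4 footprints, and the only other site inside the gene, at 6.90 kb, held 0. A site of 682 bp lay 1.64 kb past the gene's far edge with 5 footprints. The site with the second most footprints was on chromosome 8 from 71477570 to 71478527, 74.0 kb from the start edge and 47.0 kb beyond the gene. It had 16 footprints in 958 bp, 2.61 times the mean of 6.12 for its width, or 16.7 per kb. No other site lay between 71432981 and 71477569 on its near side, a stretch of 44.6 kb. The site with the third most, from 71317298 to 71318242, was 86.2 kb upstream, held 9 footprints in 945 bp, and contained the strongest footprint of the window (-9.62, 26 bp, from 71317841 to 71317866), a score that 11227 footprints of the list reach among those with a finite score. The widest Lpl site without a footprint was 546 bp wide. Downstream of the gene lay 27 of the 65 footprints, within it 17 and upstream 21. By gene order in RefSeq on GRCm38, the nearest coding genes are Ints10 (a subunit of the Integrator complex) upstream and Slc18a1 (a vesicular monoamine transporter) downstream.

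At Adipoq, no site lay on the start edge, and most footprints were upstream of it. The nearest site, on chromosome 16 from 23144271 to 23144874, ended 1126 bp before the edge and held 2 footprints (1.45 on average for its width of 604 bp). The next sites upstream had their midpoints at 9.08 kb with 6 footprints, at 13.4 kb with 2 and at 17.9 kb with 10. The last of these, from 23127470 to 23128716, was the third most footprinted of the window and 1247 bp wide. Of the sites, 1 was counted within the gene, with 4 footprints in 817 bp, from 23159590 to 23160406. It crossed the far edge at 23160000, and its midpoint lay 13.998 kb into a stretch of 14 kb. Since the edges are approximate, its place within the gene is not settled. Another 2 sites lay within 10 kb past the gene, with 3 and 2 footprints, followed by 50.5 kb without any site.

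The dense part of the Adipoq window was 30 to 40 kb upstream of the start edge. There, 9 sites followed each other within 10.1 kb, never more than 1636 bp apart, and together held 44 of the 98 footprints. A site of 1932 bp from 23106952 to 23108883 held 23, the most of any site in the 4 windows, a number that 0.953% of the list's sites reach. Its neighbour, 172 bp away, from 23106087 to 23106779, held 14 in 693 bp, 4.62 times the mean of 3.03 for its width and, at 20.2 footprints per kb, the highest density among the 68 sites. The pair spanned 2797 bp and had 37.8% of the window's footprints. The other 7 sites of this stretch were poorer, 4 with 1 footprint each, 1 with 3 and 2 with 0. The strongest footprint of the window (-6.56, 28 bp, from 23107511 to 23107538) was in the site of 1932 bp. These sites belonged to a group of 15, joined at gaps of 12.5 kb or less, which ran from 51.5 to 1.43 kb upstream by midpoint, spanned 50.7 kb and held 73 footprints (74.5%). In RefSeq's order on GRCm38, the genes next to Adipoq on this side are Rfc4 (a subunit of the clamp loader used in DNA replication) and then Eif4a2 (an RNA helicase of translation initiation), and St6gal1 (a sialyltransferase) follows Adipoq on the other side. Which of these genes each site lies at was not analysed here, since their mm9 positions were not used. The counts therefore describe the neighbourhood of Adipoq and cannot be given to the gene itself.

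At the far end of the Adipoq window, 7 sites between 72.5 and 94.9 kb past the start edge held 16 footprints. The last, from 23240270 to 23241494, had 9 in 1225 bp, close to the 9.04 of its width class. Of the others, 2 had 2 each, 3 had 1 each and 1 of 633 bp had none, the widest site of the window without a footprint.

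Fabp4 had many sites of ordinary width and few footprints. No site lay on its start edge. The nearest, on chromosome 3 from 10213476 to 10214108, began 3476 bp upstream, was 633 bp wide and held 0 footprints (1.86 on average for its width). The site with the most footprints came next, from 10216126 to 10216901, with 3 in 776 bp against a mean of 3.99 for that width. The single site inside the gene stretch, 460 bp wide and 5.03 kb past the start edge, held 1. These 3 sites were the only ones within 10 kb of the gene and had 4 of the 8 footprints. Elsewhere 2 footprints lay in a site of 644 bp at 37.4 kb upstream, 1 in a site at 69.6 kb downstream and 1 in a site at 97.1 kb upstream, and the other 10 sites had none. The widest of the sites without one was 634 bp, 73.2 kb upstream.

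The Fabp4 footprints were also weak by the authors' score. Their scores ran from -4.29 to -3.56 with a median of -3.74, against -4.38 in the list, whose weakest value is -3.54. None of the 8 reached the list's median, whereas 17 of 31 did at Cd36 (54.8%), 47 of 98 at Adipoq (48.0%) and 26 of 65 at Lpl (40%). The strongest (30 bp, from 10216294 to 10216323) had a score that 176312 footprints of the list reach among those with a finite score. Of the 8, 3 had the greatest allowed width of 30 bp. The coding genes next to Fabp4 in RefSeq on GRCm38 are relatives of it, Fabp12 upstream and Fabp9, Pmp2 and Fabp5 downstream, all of the family of small fatty acid carriers, so sites of this window need not belong to Fabp4.

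**Figure D4:**
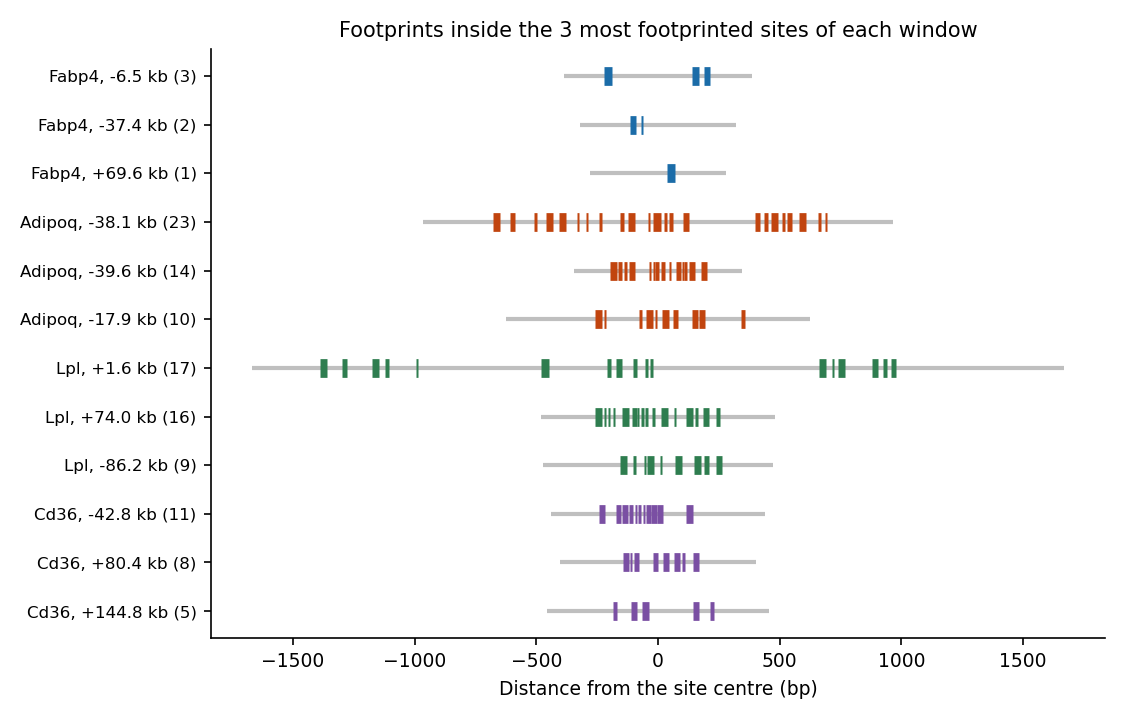
Each line is 1 of the 3 sites with the most footprints in a window, drawn to scale around its centre (x axis, bp), with footprints as coloured blocks; labels give the gene, the distance of the midpoint from the start edge and, in brackets, the number of footprints. The Lpl site at +1.6 kb shows 3 separate runs, whereas the Adipoq site at -39.6 kb and the Lpl site at +74.0 kb have 14 and 16 footprints close together.

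At Cd36 the gene, as bounded here, was nearly free of sites. The stretch from 17292951 to 17382345 on chromosome 5, 89.4 kb long, held none, and it took in the start edge and all but the far end of the gene. Gaps this long made up 2.46% of those between neighbouring sites in the list, where the median gap was 10269 bp. Inside the gene 1 site was found, 441 bp wide, 47.3 kb past the start edge, with 0 footprints. The site nearest to the start edge lay 42.3 kb upstream of it, from 17382346 to 17383220, and had the most footprints of the window, 11 in 875 bp, against a mean of 5.65 for its width. Any Cd36 transcripts that start away from this edge are not marked by it.

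The other Cd36 sites were spread out. Downstream of the gene, a site of 805 bp from 17259208 to 17260012 had 8 footprints, against 4.38 for its width, at 80.4 kb past the start edge. The site with the third most, from 17194791 to 17195700, had 5 in 910 bp close to the window's end. Upstream, beyond the site with 11 footprints, there were 4 more sites with 2, 0, 0 and 1 footprints, of which that of 768 bp was the widest in the window without any. The neighbouring coding genes in RefSeq's order on GRCm38 are Gnat3 (a G protein subunit of taste cells) upstream and Sema3c (a secreted guidance protein) downstream.

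Cd36 also had the strongest scores of the 4 windows. A footprint of 18 bp from 17282573 to 17282590 scored -85.5, a value that 13 footprints of the list reach among those with a finite score, and its neighbour of 12 bp from 17282592 to 17282603 scored -77.5. They were 1 bp apart, spanned 31 bp together, and were the only footprints in their site of 760 bp, which lay 7.43 kb past the gene's far edge. In the list 142 footprints with a finite score were below -50. Another 496 had an infinite score, and with those counted the pair ranked 509 and 528. The strongest score elsewhere in the window was -8.67, and without the pair the median of the remaining 29 footprints was -4.51, against -4.61 with it. Read counts for this site were not analysed here.

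**Figure D5:**
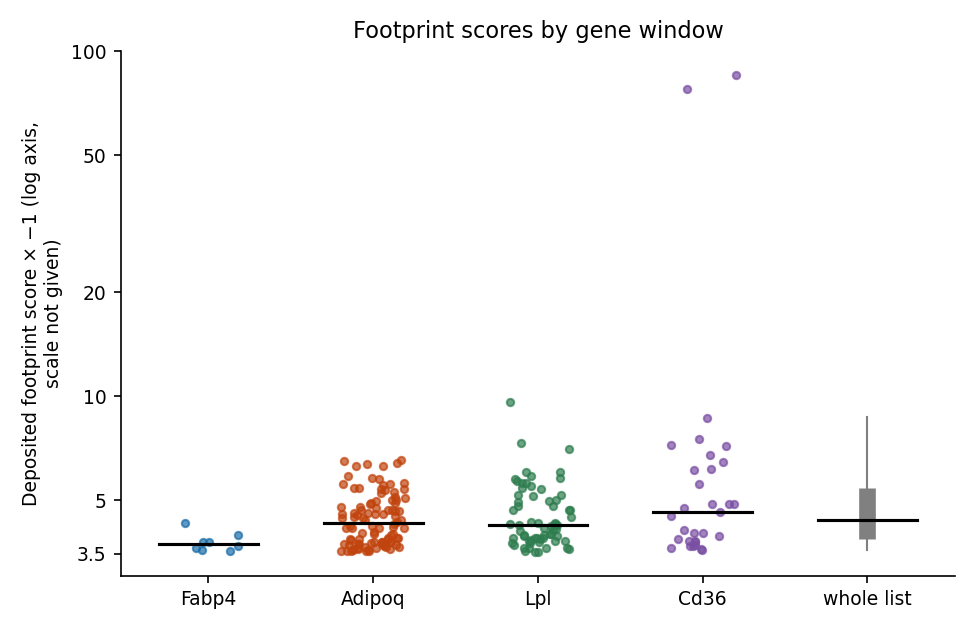
Each point is 1 of the 202 footprints, by window, with its deposited score times -1 on a log axis (higher is stronger); black lines are medians, and the grey bar of the whole list gives quartiles (thick) and the 5th to 95th percentile (thin) of finite scores. The Fabp4 points all lie below the list's median of 4.38, and 2 Cd36 points stand far above the rest.

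In width and spacing, the footprints of the 4 windows had medians close to those of the list. Their median width was 20 bp, against 21 bp in the list, with medians of 23.5 bp at Fabp4, 21 bp at Cd36, 19.5 bp at Adipoq and 19 bp at Lpl. The share at 30 bp was 22 of 202 (10.9%), against 11.6% in the list, and it was 0 of 31 at Cd36 against 10 of 65 at Lpl. The median gap between neighbouring footprints of a site was 20.5 bp over 158 gaps, against 20 bp. At Cd36 it was 9.5 bp over 24 gaps, with 12 of them under 10 bp (50%), most of these in the site with 11 footprints. Lpl had 9 of 55 under 10 bp (16.4%), Adipoq 15 of 76 (19.7%) and Fabp4 0 of 3. The share was 22.8% over the 4 windows and 24.4% in the list. No footprint of the windows lacked a finite score.

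By position, 42 of the 68 sites and 114 of the 202 footprints were upstream of their gene, 21 sites and 66 footprints downstream, and 5 sites and 22 footprints within it. Of the 22, 17 were in the single Lpl site at the start edge and 4 in the Adipoq site that crossed the gene's far edge. Within 10 kb of the gene stretch lay 14 sites with 49 footprints, 26 of them at Lpl, 17 at Adipoq, 4 at Fabp4 and 2 at Cd36. These 49 were 24.3% of the footprints in the windows. The share of window length that each position covers was not set beside these counts. They therefore do not show that sites or footprints are more or less common near the genes.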

How the data were processed

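DNase I fragments of about 100 to 150 bp from 1 library were sequenced, per the labels, and the authors combined both deposited runs with earlier reads before calling sites and footprints, so replicates cannot be compared. Per the submitters' processing notes, HOMER was used for these samples on build mm9, with no step or version named. The caller of the footprints is not given in any source used here. The footprint list has a column headed p-value, per the file headers. All its values are negative, and 496 are infinite. This deposited column was therefore treated as a score of unknown scale and used only for ranking. Deposited footprints are 8 to 30 bp wide, so longer protected stretches can appear split. No depth accompanies either list, and a deeper library allows more calls.

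Both lists were taken to be in BED form, so 1 was added to each start. No source used here states this, and 27 pairs of neighbouring sites then share 1 bp, so site starts, widths and gaps could be off by 1 bp. Footprints were assigned to sites at an overlap of 1 bp. Counts were checked with bedtools 2.31.1 and the steps were tested on simulated data. Intervals are 95% Wilson, with sites taken as independent, or exact Poisson, with footprints taken as independent, which makes the latter too narrow. Tiles of window length were laid from the first site of each chromosome, Y left out. Sites named are, per window, the 3 with the most footprints, the nearest to the start edge and the widest without a footprint, with the strongest footprint; any other site named was picked with its values in view. The members and lists were chosen with earlier results of these data known. Alternatives were window size, membership by midpoint, footprint strength, site width, merging, width classes, tile placement and joining distance. Python 3.11.15, numpy 2.4.6, pandas 2.3.3, scipy 1.17.1 and matplotlib 3.10.9 were used.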

Additional observations from a re-analysis of the deposited data

How the results depend on the processing

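No paired analysis was possible because the authors pooled all reads before calling. Of 117 values recomputed under alternatives, 101 stayed and 16 moved. Shares of sites and ratios to width stayed if within their interval. Densities, widths, counts and shares of tiles stayed if within 1.5 times. With the stronger 50% of footprints 30.9% of sites over the 4 windows had a footprint, as did 44.0% at Adipoq, 29.4% at Lpl and 0% at Fabp4, where the ratio to the number from width was then also 0, since none of its footprints reached the median score. With sites at or above the median width the share was 80.0% over the 4 windows and 90% at Lpl. In the list, classes of such width had shares from 40.01% (532 to 546 bp) to 98.84% (the widest class). The list's share with only the stronger footprints, or with only such sites, was not computed. The values for these settings therefore cannot be set against its 45.4%, which covers all sites and footprints. Leaving out windows, an alternative chosen after seeing the data, gave 75% without Fabp4 and 51.2% without Adipoq. Joining sites at 5000 bp gave 36 groups in place of 22. With 50 kb on each side, 1.07% of tiles reached the Adipoq number of sites and 24.6% that of Lpl. The intervals of the ratios to width, given next, take footprints as independent and are too narrow. Lying above or below 1 therefore does not establish a difference. Apart from the setting with the stronger 50% of footprints, the Fabp4 ratio to width ran from 0.404 to 0.529. The lower value came with sites at or above the median width. The upper came with 50 kb on each side, where its interval (0.194 to 1.15) included 1. The interval of the Adipoq ratio lay above 1 with 50 kb on each side (from 1.02), with close footprints merged (from 1.02) and with 20 classes of width (from 1.02), and not otherwise. The Lpl ratio was 0.872 (0.570 to 1.28) with the stronger 50% of footprints, below 1, against 1.11 with all footprints, both with intervals that include 1. The ratio over the 4 windows was 1.10 (0.958 to 1.27), and its interval lay above 1 with 50 kb on each side (1.04 to 1.43) and without Fabp4 (1.02 to 1.35). The Cd36 ratio ran from 1.04 with close footprints merged to 1.63 with 50 kb on each side (interval 1.03 to 2.45, above 1). No read counts accompany the lists, so sites without a footprint cannot be told apart from sites cut too seldom to show one.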
